A study of Mus musculus with 16 samples.

Results

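The Hedgehog pathway genes described here are Hhip, Gli1, Gli2, Gli3, Ptch1, Smo, Shh, Sufu and Glis2, 9 of the 17097 genes measured on the arrays. They were chosen from measured values: Hhip had drawn attention by its lower level in lungs of NM1 KO mice, a difference that had not passed adjustment for multiple testing, and the list was drawn up around it from genes of the pathway and Glis2, with earlier results of these data known. All 19 probe sets annotated to exactly 1 of these genes were taken. NM1, or nuclear myosin 1, is one of the proteins encoded by Myo1c, a motor that moves on actin, and KO mice carry a knock-out of it according to the sample labels. The groups were KO lungs and WT lungs (mice 1602, 1603 and 1586 against 1592, 1624 and 1593), KO heart and WT heart from the same 6 mice, and KO and WT skin fibroblasts (samples 1584 and 1550 against 1571 and 1623). Skin fibroblasts are connective tissue cells grown out of skin, and the labels used here state neither how they were grown nor the allele, strain, age and sex of the mice. Lungs and heart are whole organs made of many cell types, so fewer cells of a type and less RNA per cell cannot be told apart. All values are log2 signals as deposited, 1 unit being a doubling, from a total of 16 arrays, and a level is never compared between probe sets, whose probes bind with different strength.

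In the Hedgehog pathway a secreted ligand such as Shh binds the receptor Ptch1, which otherwise holds the membrane protein Smo inactive. Active Smo releases the zinc finger factors Gli2 and Gli3 from Sufu at the primary cilium, and these then switch on target genes, among them Gli1, Ptch1 and Hhip. Hhip binds the ligands at the cell surface and keeps them from the receptor. Shh made by lung epithelium patterns the mesenchyme of the developing lung, and human HHIP lies at a locus linked to lung function and chronic obstructive pulmonary disease. Glis2 is a related zinc finger factor, not a member of the core pathway, and its loss causes kidney scarring in mice and humans.

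The promoter windows of Hhip, Ptch1 and Gli2 are shown because Hhip and Ptch1 are negative feedback genes of the pathway and had higher levels in lungs than in heart of WT mice, while Gli2, an activator of both, is set beside them. The sequences are those of RefSeq for build GRCm38.p6, from 250 bases before the start of the gene to 50 after it. RefSeq windows were at hand for 6 of the 9 genes, and Gli1, Shh and Glis2 are named only. Capitals mark the core of the GLI binding motif, ACCACCC, and the GC box, GGGCGG, the binding motif of Sp factors, on either strand. The 2 motifs did not overlap in these windows.
Hhip, minus strand, chr8:80057959-80058258: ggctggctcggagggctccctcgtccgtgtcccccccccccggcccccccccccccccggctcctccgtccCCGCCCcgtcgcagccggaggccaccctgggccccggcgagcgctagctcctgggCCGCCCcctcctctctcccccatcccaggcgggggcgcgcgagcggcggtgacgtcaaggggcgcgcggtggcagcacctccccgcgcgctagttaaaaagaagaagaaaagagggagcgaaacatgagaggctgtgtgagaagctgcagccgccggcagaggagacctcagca
Ptch1, minus strand, chr13:63565686-63565985: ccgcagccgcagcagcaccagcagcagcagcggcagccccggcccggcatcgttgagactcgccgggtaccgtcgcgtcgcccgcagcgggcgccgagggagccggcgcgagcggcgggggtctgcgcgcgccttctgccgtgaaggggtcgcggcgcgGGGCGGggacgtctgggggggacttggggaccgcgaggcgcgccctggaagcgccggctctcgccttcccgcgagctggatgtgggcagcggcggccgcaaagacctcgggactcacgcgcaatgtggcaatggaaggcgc
Gli2, minus strand, chr1:119053570-119053869: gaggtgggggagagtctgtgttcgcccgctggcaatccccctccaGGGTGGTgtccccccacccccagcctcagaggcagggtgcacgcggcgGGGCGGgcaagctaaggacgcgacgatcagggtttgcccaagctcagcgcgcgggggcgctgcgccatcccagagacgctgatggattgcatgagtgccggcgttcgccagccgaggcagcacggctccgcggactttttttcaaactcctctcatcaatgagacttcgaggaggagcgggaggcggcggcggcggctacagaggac
The window of Gli2 held 1 GLI core, 205 bases before the start, and none of the other 5 windows held these letters. Among 32851 RefSeq windows of the same length, 4.61% held a GLI core and 35.7% a GC box. The Hhip window held 2 GC boxes and those of Ptch1 and Gli2 held 1 each. A match is a run of letters and not a measured binding site.

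The labels were first checked on Myo1c and on marker genes. The mean of the 4 Myo1c probe sets lay between 6.31 and 7.09 log2 in KO lungs, against 7.55 to 8.35 in WT lungs, and KO and WT did not overlap in heart (KO 5.92 to 6.00, WT 6.60 to 6.83) or fibroblasts (KO 6.24 to 6.26, WT 7.52 to 7.81) either. Markers of lung epithelium averaged 13.6 to 13.8 in all lungs and 3.42 to 5.03 in hearts, and cardiomyocyte markers 13.6 in all hearts and 5.22 to 9.16 in lungs. Markers of cultured fibroblasts averaged 9.98 to 10.3 in the fibroblast samples and at most 6.75 in the organs. The KO heart of mouse 1602 stood apart from the other hearts, with an upper quartile of all probe sets of 5.63 log2 against 6.17 to 6.31, and the main KO against WT heart results are therefore also given without it.

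Hhip, the ligand-binding inhibitor, had lower levels in KO lungs than in WT lungs on its brightest probe set, 1437933_PM_at. It measured 5.20, 5.39 and 4.86 log2 in KO lungs, against 5.58, 6.44 and 6.87 in WT lungs. All 3 KO lungs lay below all 3 WT lungs, by a margin of 0.19 between the nearest arrays. KO lungs averaged 5.15 ± 0.27 and WT lungs 6.30 ± 0.66 (SD, n = 3 each), a difference of -1.15 or 2.21-fold. The WT lungs spread more widely than the KO lungs, and leaving out single lungs moved the difference between -1.51 (without WT 1592) and -0.86 (without WT 1593). Because this difference chose the gene, it is given as a description, with no test.

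The second bright probe set of Hhip, 1455277_PM_at, gave the same picture. It measured 4.71, 4.57 and 4.42 log2 in KO lungs, against 5.23, 6.01 and 6.16 in WT lungs, with a margin of 0.52 between the groups. The difference was -1.23, or 2.35-fold. In both probe sets WT mouse 1592 was the WT lung closest to the KO lungs. The 2 dimmer probe sets lay near or below the median of all values on the arrays, 3.79, used here as the limit for a measurable level. Probe set 1421426_PM_at averaged 3.39 in KO lungs and 3.68 in WT lungs, with overlapping groups, and 1438083_PM_at averaged 3.49 in KO lungs and 3.9 in WT lungs, 0.07 apart at the nearest arrays. The mean of all 4 Hhip probe sets was 4.24, 4.16 and 4.05 in KO lungs and 4.51, 5.01 and 5.23 in WT lungs, a difference of -0.77.

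**Figure D1:**
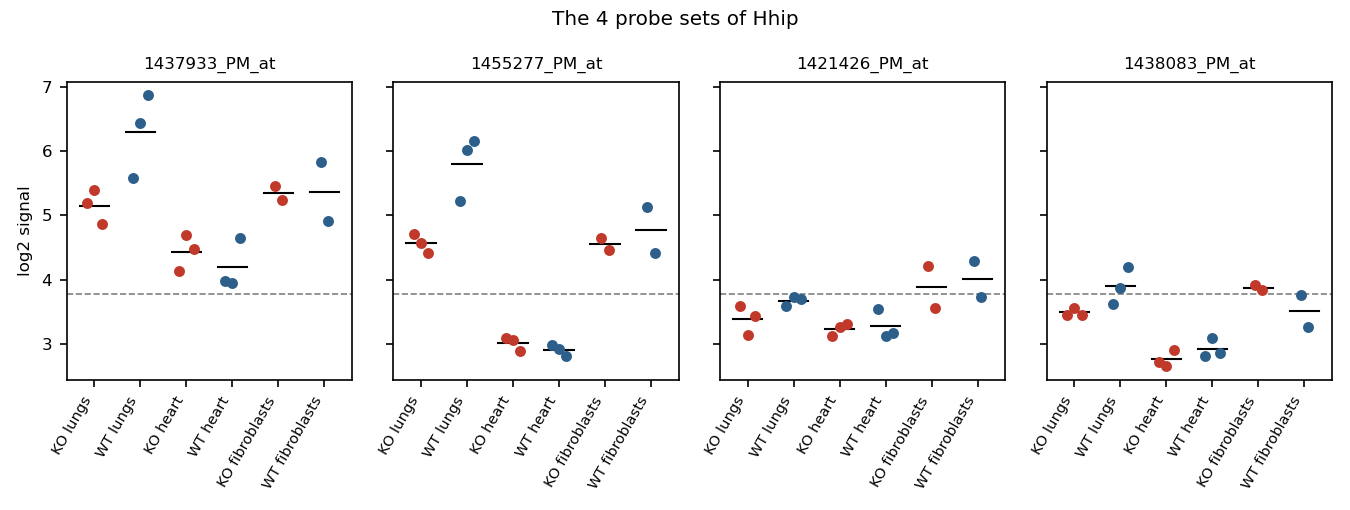
Log2 signal of the 4 Hhip probe sets in each array, by tissue and genotype, with 1 point per array (KO red, WT blue), a short line at the group mean and a dashed line at the limit on low values, 3.79. In lungs the KO points of 1437933_PM_at and 1455277_PM_at lie below all WT points, whereas in heart and fibroblasts KO and WT points of 1437933_PM_at overlap.

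Among the other members the KO and WT lungs were closer. Ptch1, the receptor, measured 8.93, 8.87 and 8.96 log2 in KO lungs, against 8.95, 9.30 and 9.30 in WT lungs, a difference of -0.26 with overlap at the lowest WT lung. Glis2 measured 7.88, 7.47 and 7.61 in KO lungs, against 7.80, 7.81 and 8.01 in WT lungs, a difference of -0.22 with overlap. Thus both genes differed by much less than Hhip. Smo, the signal-transmitting membrane protein, averaged 7.55 in KO lungs and 7.48 in WT lungs, and Sufu, the inhibitor of GLI factors, 6.16 in KO lungs and 6.18 in WT lungs. Gli3, mainly a repressor, averaged 5.25 in KO lungs and 5.19 in WT lungs, and Gli2, mainly an activator, 4.44 in KO lungs and 4.71 in WT lungs. On these brightest probe sets the KO and WT lungs of all 4 genes overlapped.

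Counted over all 19 probe sets, 15 had a lower mean in KO lungs, where 51.8% of all 45037 probe sets on the arrays did. Of the 10 probe sets kept by the limit on low values in lungs, 2 had all KO lungs below all WT lungs, both of Hhip, beside a background of 6.46% of all kept probe sets. Since lungs KO against WT chose the members, nothing is read from these counts. Marker lists of cell types varied in lungs as well. KO lung 1602 was the lowest lung in the adipocyte, smooth muscle, resident fibroblast and cardiomyocyte lists. All 5 adipocyte markers, of which Lep was below the limit, averaged higher in KO lungs. Their list means were 3.22 (mouse 1602), 7.92 and 8.42 in KO lungs and 3.52 to 6.22 in WT lungs. All 6 smooth muscle markers averaged lower in KO lungs, with list means of 5.31 (mouse 1602), 7.31 and 6.25 in KO lungs and 6.62 to 7.35 in WT lungs. Resident fibroblast markers (2 of 7 higher, Pi16 below the limit) had list means of 7.90 (mouse 1602), 8.49 and 8.51 in KO lungs and 8.34 to 8.46 in WT lungs. All 5 endothelial markers averaged lower in KO lungs, with list means of 9.59 to 10.1 in KO lungs and 9.68 to 10.4 in WT lungs. All 4 cardiomyocyte markers averaged lower in KO lungs, with list means of 5.22 (mouse 1602), 9.16 and 8.52 in KO lungs and 7.52 to 8.96 in WT lungs. The part of these cell types in the Hhip difference was not tested.

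**Figure D2:**
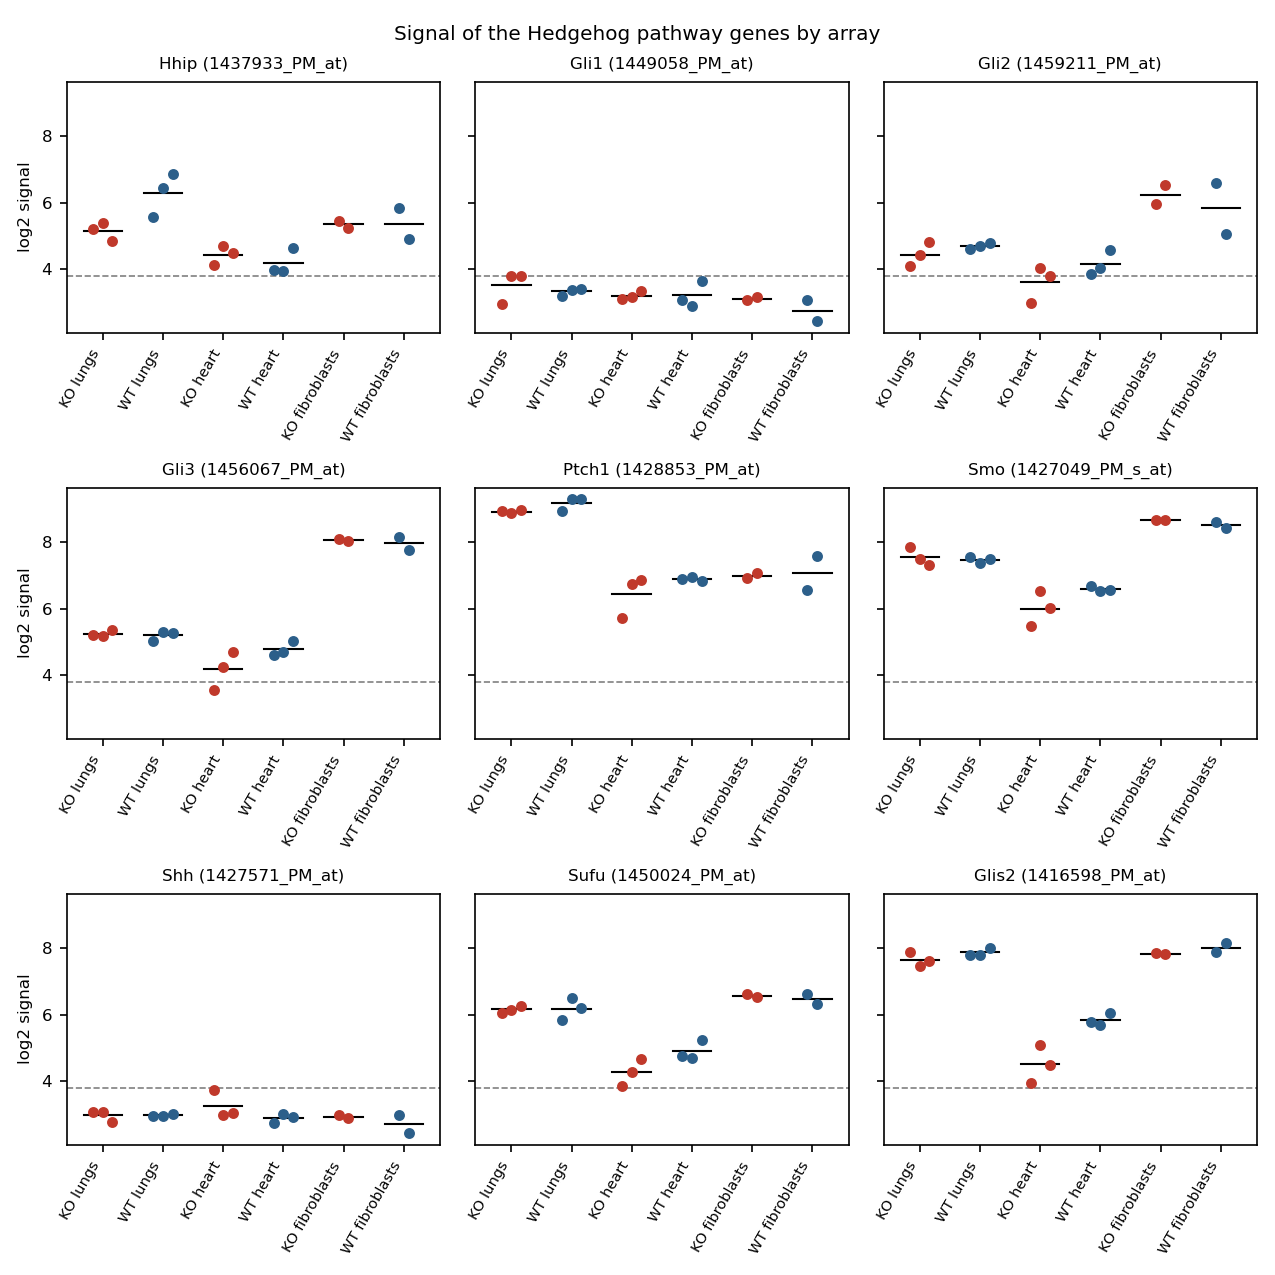
Log2 signal of the brightest probe set of each of the 9 genes in every array, with KO (red) and WT (blue) arrays side by side in lungs, heart and fibroblasts, a short line at the group mean and a dashed line at 3.79. Levels are comparable within a panel only; among lungs and hearts all KO points lie below all WT points for Hhip in lungs and for Glis2 and Sufu in heart, and Gli1 and Shh stay low in all 6 groups.

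The heart and fibroblasts of KO and WT mice played no part in singling out Hhip and could be tested, with limma across all probe sets and Benjamini-Hochberg adjustment. Hhip did not pass the threshold in either. Probe set 1437933_PM_at measured 4.14, 4.69 and 4.48 log2 in KO heart, against 3.98, 3.95 and 4.65 in WT heart, so that the groups overlapped. The difference was 0.24, with a 95% interval of -0.45 to 0.93 (limma adjusted p = 0.728). In fibroblasts it measured 5.46 and 5.24 in KO samples, against 5.83 and 4.91 in WT samples, a difference of -0.02 with an interval of -0.87 to 0.82 (limma adjusted p = 1.0). Without KO heart 1602 the heart difference was 0.39. Whether the genotype difference itself differs between tissues was not tested, because the lungs had chosen the gene.

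Glis2 was lower in KO heart than in WT heart, the 1 member to pass the threshold of an adjusted p under 0.05. Its brightest probe set, 1416598_PM_at, measured 3.94, 5.09 and 4.50 log2 in KO heart, against 5.78, 5.68 and 6.04 in WT heart. All KO hearts lay below all WT hearts by at least 0.59. The means were 4.51 ± 0.58 in KO heart and 5.83 ± 0.18 in WT heart (SD, n = 3 each), a difference of -1.32 ± 0.23 (SE) or 2.50-fold (limma adjusted p = 0.0473). The lower Glis2 in KO heart was known from earlier work on these data when the members were listed, so the call is not independent evidence. It was also close to the threshold: without KO 1602 the difference was -1.04 and the adjusted p 0.0832, and the call ended likewise without any 1 of the 3 WT hearts (limma adjusted p 0.0551 to 0.204) and under 4 other settings. The second Glis2 probe set, 1416599_PM_at, was below the limit in heart, with means of 3.53 in KO heart and 3.38 in WT heart.

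Smo, Sufu, Ptch1, Gli3 and Gli2 averaged lower in KO heart on their brightest probe sets, but none passed the threshold. Smo measured 5.48, 6.53 and 6.01 log2 in KO heart, against 6.68, 6.52 and 6.55 in WT heart, overlapping by 0.01 (difference -0.58, limma adjusted p = 0.205). Its second probe set, 1427048_PM_at, measured 4.38, 5.67 and 5.64 in KO heart, against 6.16, 5.94 and 5.90 in WT heart, without overlap (-0.77, limma adjusted p = 0.228, and -0.35 without KO 1602). Sufu measured 3.87, 4.28 and 4.66 in KO heart, against 4.76, 4.71 and 5.24 in WT heart, without overlap (-0.63, limma adjusted p = 0.185). In each of these, KO 1602 was the lowest heart. Ptch1 measured 5.72, 6.75 and 6.87 in KO heart, against 6.90, 6.94 and 6.82 in WT heart (-0.44, limma adjusted p = 0.426), and without KO 1602 the difference was -0.07. Gli3 measured 3.57, 4.25 and 4.71 in KO heart, against 4.60, 4.71 and 5.03 in WT heart (-0.60, limma adjusted p = 0.217), and Gli2 2.99, 4.05 and 3.81 in KO heart, against 3.85, 4.04 and 4.58 in WT heart (-0.54, limma adjusted p = 0.449). A second Gli2 probe set, 1446086_PM_s_at, had a difference of 0.16, and -0.06 without KO 1602.

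**Figure D3:**
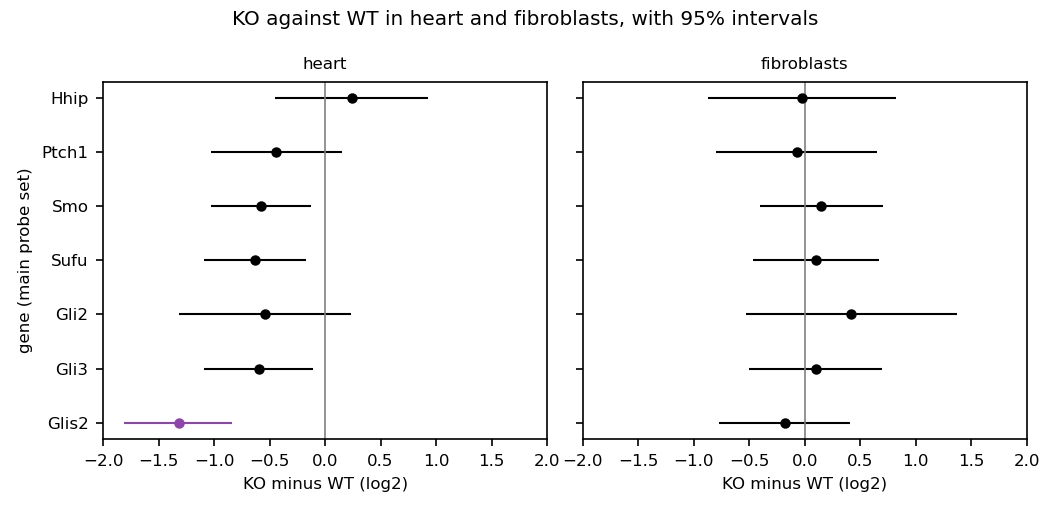
KO minus WT difference in log2 units for the brightest probe set of the 7 genes above the limit on low values, in heart (left) and fibroblasts (right), with 95% intervals from limma. Glis2 in heart, drawn in purple, is the 1 point with an adjusted p under 0.05; the intervals of Smo, Sufu and Gli3 in heart also lie below 0 before adjustment.

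Over all 19 probe sets, 14 had a lower mean in KO heart, where 56.7% of all probe sets did. Of the 9 kept, 1 was called, with a background of 0.127% of 22098 kept probe sets called and 0.109% called lower. Of the same 9, 3 had all KO hearts below all WT hearts (1 each of Glis2, Smo and Sufu), where 13.7% of all kept probe sets did. At an unadjusted p under 0.05, 5 of the 9 passed, all lower in KO heart, where 17.0% of all kept probe sets did. Without KO 1602, 1 of the 9 passed at that level, where 2173 of all 22291 kept probe sets did. In that setting 3 of the 9 had the KO hearts below all WT hearts, where 15.0% of all kept probe sets did. Of the 19, 12 then had a lower mean in KO heart, where 47.4% of all did. These counts include Glis2, known to be lower in KO heart when the members were listed, and Smo enters with more than 1 probe set. Nothing is read from them. The kept probe sets were shifted in this comparison: their median difference was -0.16, and -0.02 after quantile normalization. It was -0.05 with array quality weights, and -0.04 over all probe sets without the filter. With 1 probe set per gene, the median over all genes was -0.06, and 0.0 without KO 1602. After quantile normalization the differences were -1.21 for Glis2, -0.59 for Gli3, -0.57 for Sufu, -0.57 for Gli2, -0.31 for Smo, -0.19 for Ptch1 and 0.39 for Hhip, so each of these 7 kept its direction. Without KO 1602 they were -0.43 for Sufu, -0.31 for Smo, -0.30 for Gli3 and -0.23 for Gli2.

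Several marker lists were lower in KO heart beside these genes. All 7 resident fibroblast markers averaged lower, with list means of 7.48 to 8.06 in KO heart and 8.12 to 8.6 in WT heart, Pi16 being below the limit. All 6 mesothelial markers averaged lower, with list means of 3.91 (mouse 1602), 6.38 (1603) and 3.96 (1586) in KO heart and 5.50 to 7.37 in WT heart. The 6 atrial muscle markers, all lower on average too, had list means of 5.31 (mouse 1602), 9.77 (1603) and 5.97 (1586) in KO heart and 9.02 to 10.4 in WT heart. In the mesothelial and atrial lists KO heart 1603 thus lay within the WT range. Smooth muscle markers (5 of 6 lower, Actg2 below the limit) had list means of 5.99 to 6.34 in KO heart and 6.38 to 7.04 in WT heart, and the 5 endothelial markers, all lower, 7.18 to 8.04 in KO heart and 8.0 to 8.09 in WT heart. Without KO 1602 the counts of lower markers in these 5 lists were the same. All 4 markers of lung epithelium, of which Sftpa1 and Ager were below the limit, were higher in KO heart, with list means of 3.42 (mouse 1602) to 5.03 in KO heart and 3.61 to 3.70 in WT heart. The part of these cell types in the differences of Glis2 and the other members was not tested.

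In fibroblasts 0 of 12 kept member probe sets were called by limma, with a background of 0.0549%, and 0 had an unadjusted p under 0.05, where 3.33% of all kept probe sets did. Glis2 measured 7.85 and 7.83 log2 in KO fibroblasts, against 7.89 and 8.15 in WT fibroblasts, a difference of -0.18 with an interval of -0.77 to 0.41. Whether the genotype difference of Glis2 differs between heart and fibroblasts was not tested. Gli3 measured 8.10 and 8.04 in KO fibroblasts, against 8.16 and 7.78 in WT fibroblasts, and Smo 8.68 and 8.68 in KO fibroblasts, against 8.61 and 8.44 in WT fibroblasts. Ptch1 measured 6.93 and 7.06 in KO fibroblasts, against 6.57 and 7.57 in WT fibroblasts. The 2 WT samples were further apart than the 2 KO samples for Ptch1, Hhip, Gli2, Gli3, Smo, Sufu and Glis2, each on its brightest probe set. Gli2 measured 5.97 and 6.52 in KO fibroblasts, against 6.59 and 5.07 in WT fibroblasts, and its difference of 0.42 had an interval of -0.53 to 1.37. Sufu measured 6.62 and 6.53 in KO fibroblasts, against 6.63 and 6.31 in WT fibroblasts.

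Gli1 and Shh lay below the limit on low values in every group. Gli1, a target gene whose level is widely used as a readout of the pathway, measured 2.96, 3.79 and 3.80 log2 in KO lungs, against 3.21, 3.38 and 3.42 in WT lungs. In heart it averaged 3.21 ± 0.14 in KO and 3.22 ± 0.39 in WT (SD, n = 3 each), and in fibroblasts it measured 3.07 and 3.16 in KO, against 3.08 and 2.44 in WT. No order of the tissues or genotypes could be read at these levels. The probe set annotated to Shh alone ranged from 2.44 to 3.74 over the 16 arrays, the highest being KO heart 1602. A further probe set, 1436869_PM_at, is annotated both to Shh and to a second gene, and its signal cannot be assigned to either. It measured 8.88, 8.48 and 8.73 in KO lungs, against 8.71, 8.52 and 8.33 in WT lungs, and 2.51 to 2.89 in all hearts and fibroblasts. In WT mice it was 5.85 ± 0.15 (SE) log2 higher in lungs than in heart (limma adjusted p = 1.73e-12), while the probe set of Shh alone differed by 0.09.

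The levels in WT tissues were compared next, which shows where each member is abundant. In lungs against heart, 6 of 10 kept member probe sets passed the threshold, all higher in lungs, where 60.2% of all kept probe sets were called and 34.8% were called higher. The member share called is thus the same as the background. Hhip enters these calls with more than 1 probe set, and nothing is read from their shared direction. In lungs against fibroblasts 7 of 12 were called, 3 higher and 4 lower in lungs, with a background of 60.1% (28.4% higher and 31.7% lower). In heart against fibroblasts 9 of 12 were called, all lower in heart, with a background of 63.8% called and 36.2% called lower. Of the calls, 1 in lungs against heart (Hhip 1455277_PM_at) and 2 in heart against fibroblasts (Hhip 1455277_PM_at and 1421426_PM_at) were of probe sets below the limit in heart, which had to be lower there to be kept. The 3 comparisons share the same WT groups and are not independent. Hhip was chosen by its lung values, so its calls with lungs are not independent evidence either. In KO arrays the counts were 7 of 10 in lungs against heart, all higher (background 68.4% called and 43.4% higher), 7 of 12 in lungs against fibroblasts, 1 higher and 6 lower (65.2% called, 29.5% higher and 35.7% lower), and 10 of 12 in heart against fibroblasts, all lower (67.2% called and 42.7% lower); 1, 1 and 2 of these calls were of probe sets kept through 1 of the compared tissues alone. Over all kept probe sets the median lungs minus heart difference was 0.32 in KO and 0.18 in WT arrays, and 0.07 and 0.04 after quantile normalization; that of heart minus fibroblasts was -0.32 in KO and -0.16 in WT arrays, and -0.11 and -0.10 after it.

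Ptch1 was highest in lungs on its brightest probe set. It was 2.30 ± 0.28 (SE) log2 higher in WT lungs than in WT heart (9.18 ± 0.20 against 6.88 ± 0.06, SD, n = 3 each; limma adjusted p = 7.21e-06), and 2.12 ± 0.31 (SE) higher than in WT fibroblasts (limma adjusted p = 5.09e-05). Heart and fibroblasts did not differ past the threshold (-0.18, interval -0.85 to 0.48; 0.31 without WT fibroblasts 1623). In KO mice the lungs exceeded heart by 2.48 and fibroblasts by 1.93, so the order was the same. The second Ptch1 probe set, 1450824_PM_at, was below the limit in every group, with WT means of 3.05 in lungs, 3.18 in heart and 3.07 in fibroblasts.

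Hhip followed the order WT lungs, WT fibroblasts, WT heart on 1437933_PM_at and 1455277_PM_at. On 1421426_PM_at WT lungs averaged 3.68 and WT fibroblasts 4.01 (-0.34, limma adjusted p = 0.194). On 1438083_PM_at, not kept by the limit, WT lungs exceeded WT fibroblasts by 0.38. Probe set 1437933_PM_at was 2.10 ± 0.32 (SE) log2 higher in WT lungs than in WT heart (limma adjusted p = 6.85e-05) and 0.93 ± 0.36 higher than in WT fibroblasts (limma adjusted p = 0.0387), and it was 1.18 lower in heart than in fibroblasts (-1.18 ± 0.36, limma adjusted p = 0.0109). The same differences in KO mice were 0.72 for lungs minus heart (limma adjusted p = 0.0618), -0.20 for lungs minus fibroblasts (0.644) and -0.91 for heart minus fibroblasts (0.0366). In KO mice Hhip of the lungs was thus not resolved from that of fibroblasts (interval -0.97 to 0.57). Probe set 1455277_PM_at gave lungs minus heart differences of 1.55 in KO and 2.89 in WT mice, both called but measured against heart means of 3.02 in KO and 2.91 in WT, below the limit, and lungs minus fibroblasts differences of 0.01 in KO and 1.02 in WT mice. The call in WT lungs against WT fibroblasts on 1437933_PM_at ended without WT fibroblasts 1623, WT lungs 1593 or WT lungs 1624 (limma adjusted p 0.0927 to 0.389), and that in heart against fibroblasts without WT fibroblasts 1571 (0.169). The change of order between KO and WT includes the lung difference that chose the gene and was not tested. Since lung values chose Hhip, its differences and calls with lungs are a description and not independent evidence.

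**Figure D4:**
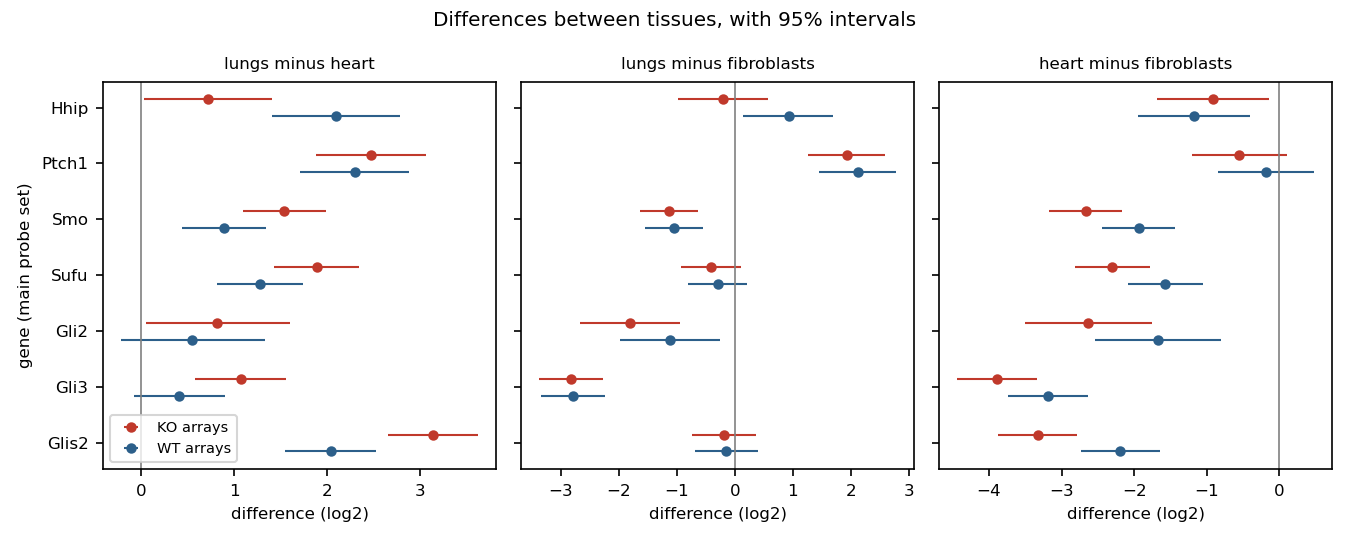
Differences between tissues in log2 units for the brightest probe set of 7 genes, from KO arrays (red) and WT arrays (blue), with 95% intervals from limma. Lungs minus heart lies above 0 for every gene, heart minus fibroblasts lies below 0 for every gene, and for Hhip the lungs minus fibroblasts value is -0.20 in KO and 0.93 in WT mice.

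Gli3, Smo and Gli2 were highest in cultured skin fibroblasts on their brightest probe sets. Gli3 was 2.78 log2 lower in WT lungs than in WT fibroblasts (-2.78 ± 0.26, SE, limma adjusted p = 6.42e-07) and 3.19 lower in WT heart (-3.19 ± 0.26, limma adjusted p = 1.11e-07), while lungs and heart did not differ past the threshold (0.41, interval -0.08 to 0.90), except with array quality weights (0.45, limma adjusted p = 0.0132). This was the widest spread between tissues among the members' brightest probe sets in WT mice. The second Gli3 probe set, 1450525_PM_at, was below the limit in every group, with WT means of 2.94 in lungs, 3.04 in heart and 2.97 in fibroblasts. The brightest probe set of Smo differed in all 3 comparisons: lungs lay below fibroblasts (-1.05, limma adjusted p = 0.0016), heart below fibroblasts (-1.94, limma adjusted p = 6.59e-06) and lungs above heart (0.89, limma adjusted p = 0.00223), while 1427048_PM_at did not pass in lungs against heart (0.46, limma adjusted p = 0.201). Gli2 was lower than in fibroblasts in lungs (-1.12, limma adjusted p = 0.0277) and in heart (-1.67, limma adjusted p = 0.00247), and its second probe set, with differences of -0.09 and -0.21, did not pass. Both Gli2 calls ended without WT fibroblasts 1571 (limma adjusted p = 0.472 for lungs and 0.0687 for heart), and the call for lungs also without WT lungs 1592 (0.0628) or WT lungs 1624 (0.0558). In KO mice Gli3 was also higher in lungs than in heart (1.07, limma adjusted p = 0.000927), with KO heart 1602, which stood apart, the lowest heart (3.57).

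Glis2 and Sufu had low levels in heart on their brightest probe sets. Glis2 was 2.04 ± 0.23 (SE) log2 higher in WT lungs than in WT heart (limma adjusted p = 3.24e-06), lower in WT heart than in WT fibroblasts (-2.19, limma adjusted p = 4.3e-06), and not different past the threshold between lungs and fibroblasts (-0.15, interval -0.69 to 0.40). Sufu was 1.28 ± 0.21 higher in lungs than in heart (limma adjusted p = 0.000166) and lower in heart than in fibroblasts (-1.57, limma adjusted p = 6.3e-05), with -0.29 between lungs and fibroblasts (interval -0.81 to 0.22). The other Sufu probe sets, 1431713_PM_at and 1420848_PM_at, were below the limit in every group, with WT lungs minus heart differences of -0.23 each. On the second Glis2 probe set, 1416599_PM_at, WT means were 3.74 in lungs, 3.38 in heart and 3.82 in fibroblasts. In KO mice the lungs minus heart difference was 3.14 for Glis2 and 1.89 for Sufu. Both include KO heart 1602, which stood apart and was the lowest heart for each gene (3.94 and 3.87), and are not given without it.

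The wider pathway was described through a list of 66 genes in 6 roles, of which 59 were measured, 50 of them not among the 9 members. Between KO and WT, 0 of 30 kept genes outside the members were called in heart and 0 of 34 in fibroblasts by limma. At an unadjusted p under 0.05 these were 9 in heart, where 17.0% of all kept probe sets passed, and 3 in fibroblasts, where 3.33% did. In heart 35 of the 50 had a lower mean in KO, with a median of -0.12 against -0.06 over all genes. Without KO 1602 these were 32 of the 50, with a median of -0.06 against 0.0 over all genes. In that setting 8 of 31 kept had an unadjusted p under 0.05, where 2173 of all 22291 kept probe sets did. Cdon, a co-receptor for the ligands, had a difference of -1.15 (limma adjusted p = 0.129), and Evc2 and Evc, which pass on the signal of Smo at the base of the cilium, had -0.81 and -0.68 (limma adjusted p = 0.128 and 0.156). Without KO 1602 these 3 differences were -0.87, -0.73 and -0.58. Sfrp1, a secreted Wnt inhibitor, had -1.20 and Bmp4, a growth factor, -0.93 (limma adjusted p = 0.157 and 0.134), and both -0.75 without KO 1602. Scube2, which helps release the ligands, had 0.29 (limma adjusted p = 0.604), and Ihh (-0.16) and Disp2 (0.28) were below the limit. In fibroblasts the median was 0.02, against 0.03 over all genes.

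In lungs 35 of the 50 genes outside the members had a lower mean in KO, with a median of -0.09 against -0.04 over all genes, given without a test.

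Between WT lungs and WT heart, 18 of 39 kept genes outside the members were higher in lungs and 5 lower, where 34.8% of all kept probe sets were called higher and 60.2% in either direction. Of these 23 calls, 11 were of genes below the limit in 1 of the organs, which had to differ to be kept. The median over the 50 was 0.12, against -0.01 over all genes. By role, and with the members included, 4 of 5 kept receptors and co-receptors were higher and 0 lower, 10 of 21 regulators in the cilium and cytoplasm were higher and 2 lower, and 2 of 4 zinc finger factors were higher and 0 lower. Of 15 kept target genes 8 were higher and 2 lower. The members Ptch1, Smo and Hhip are among the 4 receptors higher in lungs, and Ptch1 and Hhip count again as target genes. Hhip was chosen by its lung values, so nothing is read from these counts by role. Foxf1, a forkhead factor of lung mesenchyme, measured 10.68 ± 0.36 log2 in WT lungs and 3.62 ± 0.30 in WT heart (SD, n = 3 each; difference 7.06, limma adjusted p = 6.31e-11), the heart value being below the limit. Tbx2, a T-box repressor, was higher by 4.71 (limma adjusted p = 2.85e-10). With the KO heart that stood apart left out, Tbx2 was below the limit in heart. Its difference is therefore not one between clearly measurable levels. Dync2h1, the motor of transport back along the cilium, was higher by 2.02 (limma adjusted p = 7.84e-05). Tulp3, which carries receptors into the cilium, was higher by 1.87 (limma adjusted p = 4.03e-07). Glis3, a relative of Glis2 that was below the limit in heart, was higher by 1.77 (limma adjusted p = 1.38e-05). Of the ligand release proteins, Disp2 was higher by 1.95 (limma adjusted p = 0.000215) and Disp1 lower (-0.97, limma adjusted p = 0.000477), with Disp2 below the limit in WT heart (2.82) and Disp1 in WT lungs (2.99). On probe sets with 1 gene the 3 ligands were below the limit in both organs, with differences of 0.19 for Dhh and 0.09 for Shh, apart from the bright lung signal of the probe set shared by Shh and a second gene.

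**Figure D5:**
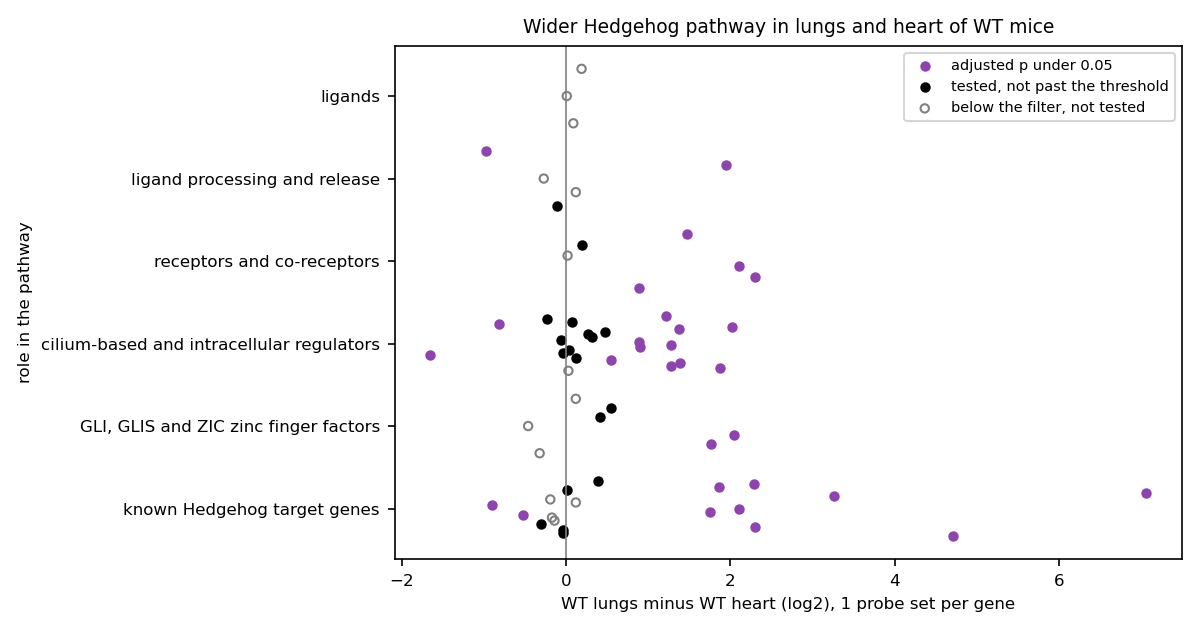
WT lungs minus WT heart in log2 units for the 59 measured genes of the wider Hedgehog pathway, 1 point per gene, arranged by role. Filled purple points have a limma adjusted p under 0.05, and black points were tested and did not pass. Open points were below the limit on low values. Foxf1 at 7.06 and Tbx2 at 4.71 lie furthest to the right. Foxf1 was below the limit in WT heart, and Tbx2 in heart with the KO heart that stood apart left out.

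Against WT fibroblasts, WT lungs had 12 of 39 kept genes outside the members higher and 16 lower, where 28.4% of all kept probe sets were higher and 31.7% lower. WT heart had 9 of 38 higher and 21 lower, where 36.2% of all kept probe sets were lower. Of these calls, 6 of 28 for lungs and 9 of 30 for heart were of genes kept through 1 of the compared tissues alone. The heart median over the 50 genes was -0.48, against 0.01 over all genes. With members included, all 5 kept zinc finger factors and 4 of 5 receptors and co-receptors were lower in heart than in fibroblasts. These repeat the member calls given above, of Gli2, Gli3 and Glis2 in the former and of Hhip and Smo in the latter.

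The genes whose profile over the 16 arrays was nearest to that of each of 3 members were found among 18874 probe sets by the root mean square difference of mean-centred values. For Hhip they were Paqr8 (0.38 log2), Tdrd7, Ankrd13a, Fut4 and Jun (0.40 each). For Glis2 they were Ajuba (0.22), Tbc1d2b (0.24), Skap2 (0.25), Rbms3 and Zfhx3 (0.27 each), closer than any gene to Hhip. For Gli1 they were Kbtbd8 and Srprb (0.20 each), Gsn (0.21), Blmh and Pnpla3 (0.22 each), but the flat profile of Gli1 below the limit on low values makes many genes alike.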

How the data were processed

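Transcript levels were measured on 16 Affymetrix mouse arrays (6 of lungs, 6 of heart and 4 of skin fibroblasts) from 6 ug of total RNA each, per the labels' protocols. The authors deposited a log2 signal for each probe set on each array. Partek 6.4 is named in the submitters' processing notes; its background correction, probe summary and normalization were not stated in the sources. No depth goes with array values, and the number of arrays limits the precision. Of 45141 entries, 104 controls were set aside; 28898 of 45037 probe sets name exactly 1 gene, 551 several and 15588 none here, and 28689 took a current symbol through their gene number.

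Groups followed the sample titles, and mouse numbers were taken as separate animals. A limma 3.58.1 model in R 4.3.3 of 6 group means was fitted to all probe sets and arrays (10 residual and 3.53 prior degrees of freedom), so lungs and heart of 1 mouse counted as separate samples. Probe sets were kept when their mean in a compared tissue exceeded 3.79, the median of all values; two-sided p-values were adjusted by the Benjamini-Hochberg method over those kept and called under 0.05. A gene's brightest probe set is the one with the highest mean over the 16 arrays, among those that name exactly 1 gene. Named pathway genes were, in each role, those called in heart or fibroblasts and the 2 with the largest difference in KO against WT heart and in WT lungs against WT heart. The lists of members, pathway genes and markers were chosen with earlier results of these data known. The fit was tested on simulated data. Pairing of lungs and heart by the mouse number in the titles was checked from deviations from group means: each mouse's lungs correlated with its own heart at r = 0.0472, 0.0404, 0.155, 0.0995, 0.169 and 0.0961, and best with its own heart in 4 of 6 mice. Alternatives were no filter, quantile normalization, array weights, arrays of the compared tissues only, the mouse as block, KO arrays in place of WT and each array left out.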

Additional observations from a re-analysis of the deposited data

How the results depend on the processing

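The count of 1 called member probe set in KO against WT heart was the least stable result. It was 0 with array quality weights, with arrays of the compared tissues only, without the filter on low values and with quantile normalization, and ranged from 0 to 2 over single hearts left out. It was 0 without KO 1602 or any 1 WT heart and 2 without KO 1603, where Smo was called with Glis2 (-0.84, limma adjusted p = 0.0253). The Glis2 difference ranged from -1.62 to -1.04 over left-out hearts, and its adjusted p was 0.0569 with array weights, 0.503 with heart arrays only, 0.0964 without the filter and 0.0541 with quantile normalization.

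With single arrays left out, the counts of called member probe sets ranged from 6 to 6 in WT lungs against WT heart, 5 to 6 in WT lungs against WT fibroblasts, 6 (without WT fibroblasts 1571) to 10 in WT heart against WT fibroblasts and 0 to 0 in KO against WT fibroblasts. The Hhip difference in lungs ranged from -1.51 to -0.86 and was -1.18 with quantile normalization and -1.13 with array weights. With the mouse as replicate block the counts were 1 in KO against WT heart, 0 in KO against WT fibroblasts, and 6, 7 and 9 in the tissue comparisons, and no call count changed.

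Signs turned mainly in fibroblasts, where a left-out array leaves 1 sample in its group, assumed to vary like the other groups. KO minus WT ranged over left-out arrays from -0.49 to 0.44 for Hhip (0.09 without KO 1550, 0.44 without WT 1571), and, the turned sign being without WT 1623 in each, from -0.34 to 1.17 for Gli2, -0.09 to 0.29 for Gli3, -0.57 to 0.43 for Ptch1 and -0.06 to 0.26 for Sufu. WT heart minus WT fibroblasts of Ptch1 ranged from -0.68 to 0.31, positive without WT 1623. Lungs minus fibroblasts of Hhip was -0.20 on KO arrays.

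Hhip in WT lungs against WT fibroblasts lost its call with arrays of those tissues only (limma adjusted p = 0.0528), without the filter (0.063), with quantile normalization (0.0573) and without WT fibroblasts 1623 (0.389), WT lungs 1593 (0.146) or WT lungs 1624 (0.0927). Gli2 lost its call there without WT fibroblasts 1571 (0.472), WT lungs 1592 (0.0628) or WT lungs 1624 (0.0558), and in WT heart against WT fibroblasts without WT fibroblasts 1571 Hhip (0.169) and Gli2 (0.0687) lost theirs. Apart from the dropped arrays themselves, the cause of these changes was not tested. Over the brightest probe sets of the members, 346 alternative values kept direction and side of the threshold, 20 lost and 3 gained a call (Smo above, and Gli3 in lungs against heart with array weights and on KO arrays), and 8 changed sign. With 2 or 3 arrays per group, differences under the intervals given could not be resolved, and no statement is possible on Gli1 and Shh below the limit on low values.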
